A study of Mus musculus with 20 samples.

Results

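Malat1, Neat1, Miat, Snhg11, Snhg1, Gas5, Pvt1, Rmst, Sox2ot and Pantr1 are 10 genes known as long non-coding RNA (lncRNA) genes, although GENCODE M21 types Snhg11 and its transcript here as protein-coding. They were taken by symbol from a deposited table of 24521 genes, in which they have 41 of 54271 transcripts. The values are FPKM, fragments per kilobase of transcript scaled to the mapped fragments of a library, and a gene's level is the sum over its transcripts. All 10 genes and all 41 transcripts had a mean of at least 0.1 FPKM and were tested. The libraries came from cerebral cortex of (C57BL/6 x C3H)F1 mice, 5 in each of 4 groups. WT03M and WT10M are wild-type mice aged 3 and 10 months. TG03M and TG10M are mice of the same ages with the transgene Tg(Prnp-MAPT*P301S)PS19Vle, which places mutant human tau under the Prnp promoter and is used as a model of tau pathology. The labels do not say that replicates are separate animals, so a p here stands for the spread among these libraries only, which may be technical.

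Malat1 stays in the nucleus beside nuclear speckles, bodies rich in splicing factors, and Neat1 is the RNA scaffold of paraspeckles, nuclear bodies that hold RNA-binding proteins. Miat is a nuclear RNA enriched in neurons that binds splicing factors. Gas5, Snhg1 and Snhg11 are host genes: small nucleolar RNAs (snoRNAs), which guide chemical modification of ribosomal RNA, are cut from their introns, and the spliced host RNAs of such genes are often short-lived because translation exposes them to nonsense-mediated decay. Pvt1 lies beside Myc, Rmst and Sox2ot are linked to the transcription factor Sox2, and Pantr1 lies beside Pou3f3, a gene for a cortical transcription factor.

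The steps between low FPKM values put the depth at about 22600000 to 30100000 fragments per library. Prnp, whose promoter drives the transgene, was at 412 to 528 FPKM in the 10 WT libraries and at 695 to 841 in the 10 TG libraries, so no library went against its genotype label. The highest WT value, 528 FPKM, was that of WT10M replicate 5, and the other WT libraries were at 412 to 458 FPKM. WT10M replicate 5 and TG10M replicates 1 and 5 stood apart from the other 17 libraries in an earlier look at these values and are called the set apart. The 10 neuron markers summed to 2758 to 2799 FPKM in the set apart and to 2843 to 3216 FPKM in the other 17, with no overlap. The labels give no batch. Markers of neighbouring tissue varied within groups: the 8 choroid plexus markers summed to 88.6 to 1293 FPKM and the 8 striatum markers to 169 to 482 FPKM. In TG10M, 4 of 10 microglia markers and 2 of 10 astrocyte markers rose over WT10M (Tyrobp by 1.04 and Gfap by 1.35 on the log2 scale). All 8 striatum markers were below 0 for genotype at 10 months (median -0.61, 0 passed), and the part of tissue makeup in the results was not tested. In bulk tissue, fewer cells of a type and less RNA per cell cannot be told apart.

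The transcripts in the table decide which stretch of each RNA was measured. Malat1, made mostly as an unspliced RNA, lies at chr19:5795690-5802672 on the minus strand (GRCm38, GENCODE M21), and Neat1 lies 22035 bases away at chr19:5824708-5845478 on the same strand. The full unspliced transcripts of 6983 and 20771 bases were not analysed here. Both RNAs end in a stretch that folds into a protective triple helix, for which the A-rich end is needed. The 90 bases up to the letters AAAAAGCAAAA, in capitals, were read 5′ to 3′ from the M21 transcripts to show where these ends lie.
Malat1: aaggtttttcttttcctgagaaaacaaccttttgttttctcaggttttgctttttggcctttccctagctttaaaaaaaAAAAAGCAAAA
Neat1: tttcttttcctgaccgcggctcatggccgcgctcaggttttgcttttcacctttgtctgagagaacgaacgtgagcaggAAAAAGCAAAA
The first is chr19:5795982-5796071 and the second chr19:5824708-5824797, both on the minus strand. Searched on the transcribed strand, these letters are in the last 400 bases of 0.117% of the 122312 M21 transcripts that are long enough, a window that takes in the tract of both RNAs. The tract ends at base 6691 of the Malat1 transcript and at base 20771, the last base, of Neat1.

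Malat1 was measured through 3 short models of 2 exons each. The 5′ model (485 bases) covers bases 2 to 435 and 707 to 757 of the unspliced RNA. Of the 3′ models, the longer-intron one (556 bases) joins bases 5209 to 5669 to bases 6888 to 6982, and the shorter-intron one (656 bases) joins 5721 to 6284 to 6888 to 6979. The exon that these 2 models share begins 196 bases past the A-rich tract. The joins are shown because only a read across them separates a spliced model from the unspliced RNA. Of each, 20 bases of the first exon are in lower case and 20 of the second in capitals.
5′ model: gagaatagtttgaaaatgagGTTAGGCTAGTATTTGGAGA
3′ model, longer intron: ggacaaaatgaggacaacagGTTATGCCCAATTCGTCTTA
3′ model, shorter intron: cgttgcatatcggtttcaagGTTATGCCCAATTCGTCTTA
The introns left out are 271, 1218 and 603 bases long in that order, and each begins with GT and ends with AG. Fragments of the unspliced RNA that fall in these exons can count towards the models, so a level here is not a measure of spliced Malat1. The only Neat1 transcript in the table (1030 bases in 4 exons) lies within bases 220 to 1798 of the RNA. That stretch is common to the short and long forms of Neat1, and the table does not tell them apart.

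Miat (chr5:112213228-112229395, minus strand) carries repeats of TACTAAC, the branch-point-like letters through which it is known to bind the splicing factor Sf1. Its main model has 8758 bases and holds TACTAAC 6 times on the transcribed strand, in 2 clusters. The first lies at bases 4538 to 4669 and the second at bases 5186 to 5226, with the repeats in capitals.
Miat first cluster: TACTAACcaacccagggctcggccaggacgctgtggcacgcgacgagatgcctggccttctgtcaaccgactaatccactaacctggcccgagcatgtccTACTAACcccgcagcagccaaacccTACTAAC
Miat second cluster: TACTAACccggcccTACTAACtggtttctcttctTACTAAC
Of 141767 M21 transcripts, 3.6% hold TACTAAC at least once and 5 hold it 6 times or more. Of 1749606 windows of 132 bases over these transcripts, 0.283% hold it at least once and 6 hold it 3 times or more. The window length was taken from the first Miat cluster. The windows lay end to end, so clusters cut by a window edge were missed, and Miat's own transcripts were not left out.

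The 3 host genes differ in size and in the snoRNAs they carry. Gas5 (chr1:161034422-161038539, plus strand) holds 9 snoRNA loci in M21, Snhg1 (chr19:8723475-8726443, plus strand) 8, and Snhg11 (chr2:158375638-158386145, plus strand) 2. Host genes of this kind often begin with a C followed by a run of C or T, a feature of RNAs whose translation is tied to growth signals. The first 30 bases from the annotated start are shown for that reason, from the RefSeq promoter table (GRCm38.p6), with the opening run of C and T in capitals.
Gas5: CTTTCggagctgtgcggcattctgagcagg
Snhg1: CTCatttttccttgttcggggtaagtactc
Snhg11: actcacgcactcagcctgctaggcaagtca
These begin at chr1:161035166-161035195, chr19:8723487-8723516 and chr2:158375713-158375742. The opening run is 5 bases in Gas5, 3 in Snhg1 and 0 in Snhg11, and 2.51% of 32851 starts in the table have a C with 4 or more C or T after it. A second Gas5 start in that table has a run of 0. Miat, which is no host gene, has the longest run among the starts of these genes, 6 bases, and Malat1 has 1. The table holds starts for 5 of the 10 genes.

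Malat1 was the gene with the 5th highest mean in the table, 3923 ± 874 FPKM (SD, n = 20), and took 0.502 to 1.06% of a library's summed FPKM. This sum adds the 5′ model (mean 1296 FPKM) and the longer-intron and shorter-intron 3′ models (1564 and 1063 FPKM). They cover largely different stretches of the RNA. An unspliced molecule can count towards each of them, so this rank and share may be too high. The other 9 genes ranged from Gas5 (151 FPKM), Snhg11 (100.3), Pantr1 (80.5) and Miat (33.3) down through Pvt1 (23.8), Snhg1 (16.6), Rmst (13.4) and Sox2ot (10.1) to Neat1 (9.87), each a mean over the 20 libraries. Between its lowest and highest library, Pvt1 varied 1.48-fold, Malat1 2.17-fold, Neat1 3.93-fold and Gas5 25.0-fold.

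**Figure D1:**
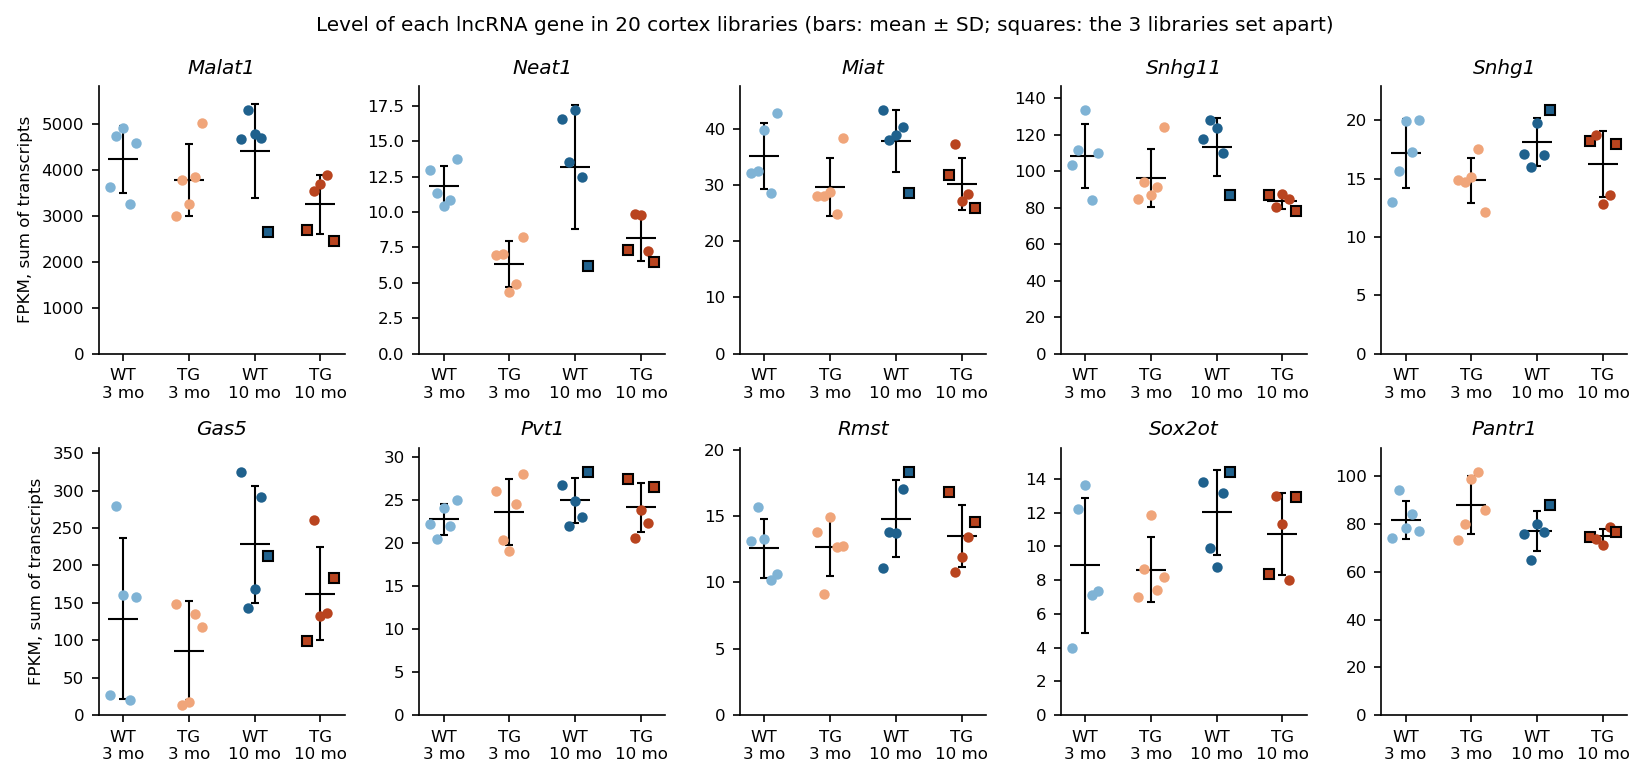
FPKM of each of the 10 lncRNA genes (y axes from 0) in the 4 groups (x axes), with a point per library, the mean as a bar and the SD as whiskers; squares are the 3 libraries of the set apart. Neat1 was lower in all 5 TG03M libraries than in any WT03M library, and Gas5 was below 30 FPKM in 4 libraries at 3 months.

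No gene of the 10 passed an adjusted p of 0.05 in any of the 5 comparisons, which were genotype at each age, age in each genotype and their interaction. Of all 18011 genes tested with limma, 0.211% passed for genotype at 3 months, 0.461% for genotype at 10 months, 0.0611% for age in WT, 0.594% for age in TG and 0.0222% for the interaction. At an unadjusted p under 0.05 the 10 genes numbered 1, 4, 0, 1 and 0 in that order, where 9.47%, 12.7%, 6.89%, 14.2% and 4.77% of all genes did. The 4 at 10 months were Malat1, Neat1, Miat and Snhg11, all lower in TG10M. At 10 months all 10 log2 differences were below 0, with a median of -0.25 against -0.01 over all genes. At 3 months 6 of 10 were below 0, with a median of -0.17 against -0.01. Non-coding genes as a whole lay lower too: the median over the 2480 tested was -0.14 at 10 months and -0.07 at 3 months. Of the 41 transcripts, 0 passed in any comparison, where 0.0644%, 0.0952%, 0.014%, 0.12% and 0.0084% of 35709 transcripts did, in the order above. The genes were chosen with earlier results known, so these counts are a description.

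**Figure D2:**
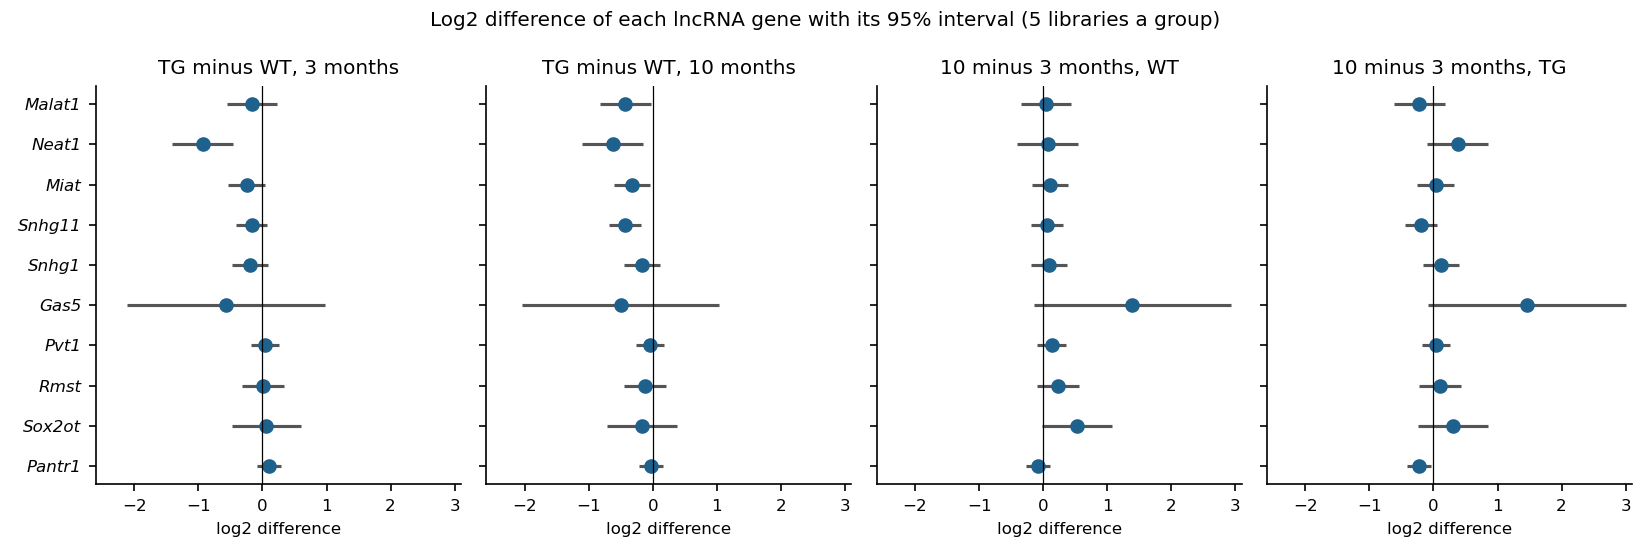
Log2 differences (x axes) of the 10 lncRNA genes (y axis) for genotype at 3 and 10 months and for age in WT and TG, with bars for 95% intervals from the fit of all genes. For Neat1 the interval lies below 0 in both genotype panels, and the Gas5 intervals are the widest in every panel.

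Malat1 was at 3643, 4750, 4916, 3268 and 4587 FPKM in WT03M and at 3008, 3777, 3263, 3859 and 5019 FPKM in TG03M. These groups overlapped, and the highest of the 10 was a TG library. The log2 difference was -0.17 (SE 0.19, limma adjusted p = 0.825). In WT10M the levels were 4681, 5305, 4788, 4699 and 2640 FPKM, and in TG10M 2686, 3535, 3700, 3888 and 2447 FPKM. WT10M replicate 5 fell among the lowest TG10M libraries, while the other 4 WT10M libraries lay above all of TG10M. The log2 difference at 10 months was -0.43 (SE 0.19, unadjusted p = 0.0322, limma adjusted p = 0.346). Leaving out WT10M replicate 5, after which only TG libraries remain in the set apart, gave -0.60 (adjusted p = 0.0279). In that fit 1453 of all 18011 genes passed at 10 months, against 83 with all libraries. Among the 7 libraries of that age outside the set apart the Malat1 difference was -0.39, and within the set apart it was -0.04.

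In order of the mean, Malat1 was at 4423 ± 1029 FPKM in WT10M, 4233 ± 731 in WT03M, 3785 ± 775 in TG03M and 3251 ± 643 in TG10M (SD, n = 5). Neighbours in this order differed by less than their SDs. With age the log2 difference was 0.04 in WT (adjusted p = 0.978) and -0.22 in TG (adjusted p = 0.592), and the test of the difference between these gave an adjusted p of 0.981. After quantile normalization the genotype difference at 3 months turned to 0.19.

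The 5′ and 3′ models of Malat1 did not keep one ratio over the libraries, a pattern chosen after the values were seen. The 5′ model stood at 542 to 654 FPKM in the set apart and at 982 to 1852 FPKM in the other 17. Its ratio to the sum of the 3′ models was 0.314 in WT10M replicate 5 and 0.322 and 0.285 in TG10M replicates 1 and 5. In the other 17 libraries it was 0.447 to 0.572. The set apart did not overlap with the rest, and there the 5′ end was short relative to the 3′ end. The ratio of the longer-intron to the shorter-intron 3′ model was 1.48 to 1.52 in the set apart and 1.37 to 1.63 elsewhere, so these ranges overlapped.

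Outside the set apart, TG10M replicates 2, 3 and 4 had 5′ over 3′ ratios of 0.454, 0.447 and 0.478. The ratio was 0.522, 0.536, 0.565 and 0.487 in WT10M replicates 1 to 4, all above these 3. At 3 months it was 0.548, 0.525, 0.519, 0.534 and 0.572 in WT03M and 0.485, 0.515, 0.516, 0.523 and 0.536 in TG03M. TG03M and WT03M overlapped. The ratio was chosen after its values were seen, which an adjustment over 4 comparisons does not cover. The p given for it are therefore a description. The log2 difference of the ratio was -0.40 for age in TG (two-sided exact permutation test, p = 0.00794, 0.0317 adjusted over 4 comparisons). That unadjusted p is the smallest that 5 against 5 allows. Without the set apart the difference was -0.16 (exact p = 0.0179, the smallest for 3 against 5). For genotype at 10 months it was -0.29 (exact p = 0.19) with all libraries and -0.20 (exact p = 0.0571) without the set apart. For genotype at 3 months it was -0.07 (exact p = 0.0714). For age in WT it was -0.18 (exact p = 0.262) with all libraries and -0.03 (exact p = 0.524) without the set apart. RNA quality per library is not in the labels beyond a RIN above 7, and its part in these ratios was not tested.

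**Figure D3:**
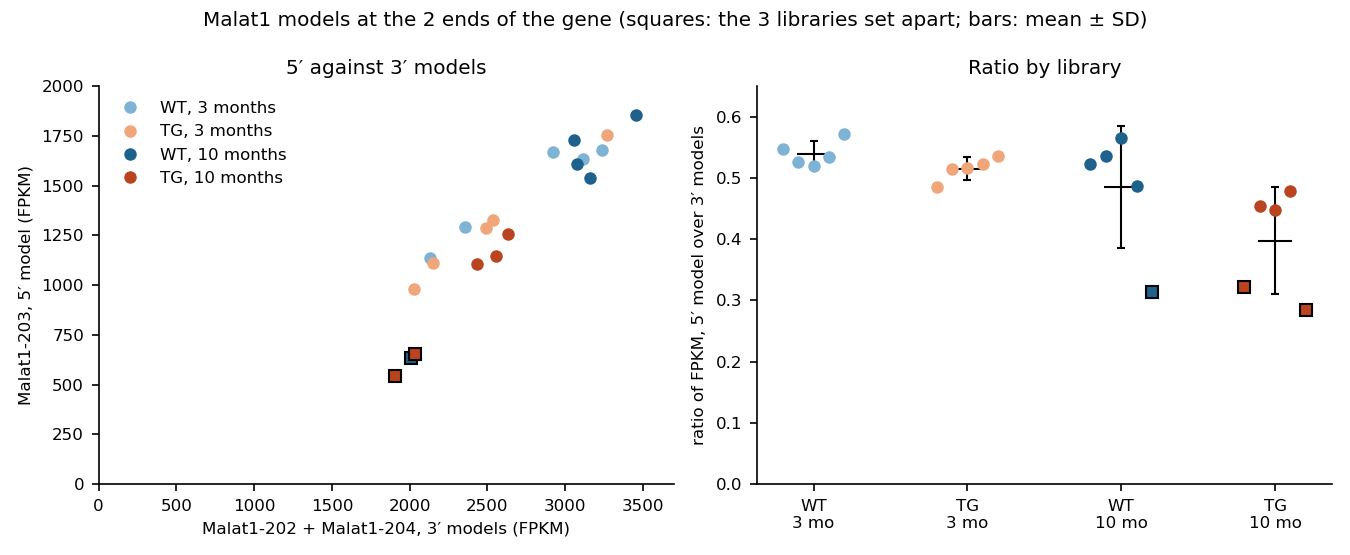
Left, FPKM of the 5′ model (y axis) against the sum of the 3′ models (x axis); right, their ratio by group, with mean and SD. The 3 squares, the libraries set apart, lie at ratios of 0.285 to 0.322, below the 0.447 to 0.572 of the other 17 libraries.

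The genes whose levels followed Malat1 most closely over the 20 libraries, among 13640 genes with a mean of at least 1 FPKM, were A330023F24Rik (Pearson's r = 0.923), Mir124a-1hg (0.920), Zfp652 (0.920), Pnisr (0.917) and Ralgapa2 (0.914). A330023F24Rik and Mir124a-1hg are themselves non-coding genes that host microRNAs, and Pnisr encodes a protein of nuclear speckles. Of the other 9 lncRNA genes, Snhg11 was the closest (r = 0.870, rank 59), ahead of Miat (0.702, rank 1151) and Neat1 (0.628, rank 1781). Snhg1, Pvt1, Rmst and Pantr1 had r between -0.231 and -0.081, and Gas5 and Sox2ot had 0.244 and 0.030. Libraries share their scaling and their place in or out of the set apart, so these r are a measure of likeness only. Without the set apart r was 0.909 for Snhg11, 0.728 for Miat, 0.567 for Neat1 and 0.531 for Gas5. It turned positive for Snhg1 (0.239), Pvt1 (0.333) and Rmst (0.250), was 0.344 for Sox2ot and stayed negative for Pantr1 (-0.150).

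Neat1 was at 13.0, 11.4, 10.4, 10.9 and 13.7 FPKM in WT03M and at 6.97, 7.04, 4.37, 4.91 and 8.23 FPKM in TG03M. Every TG03M library was below every WT03M library, which held in this direction for 2.07% of all genes tested. The log2 difference was -0.93 (SE 0.23, 95% interval -1.41 to -0.46, unadjusted p = 0.000524), and with 75 genes ahead of it the limma adjusted p was 0.124. A two-sided exact permutation test gave 0.00794, the smallest p for 5 against 5. The adjusted p went under 0.05 in 4 of 24 alternative analyses. These were array weights, only the compared groups, the set apart as a term, and without the set apart. In that order 119, 152, 451 and 442 of all 18011 genes passed at 3 months, against 38 in the fit reported. No library of the set apart is 3 months old, so all these settings but array weights left the difference at -0.93. They changed only the estimate of the spread and are not separate checks of the difference. The log2 difference of Neat1 was -1.04 to -0.81 over all 24 analyses. An estimated 108 to 462 fragments per library stood behind the Neat1 values.

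At 10 months Neat1 was at 16.6, 13.5, 17.2, 12.5 and 6.17 FPKM in WT10M and at 7.30, 9.88, 9.80, 7.23 and 6.49 FPKM in TG10M. WT10M replicate 5 was the lowest of the 10, and the other 4 WT10M libraries lay above all of TG10M. The log2 difference was -0.63 (SE 0.23, unadjusted p = 0.0116, limma adjusted p = 0.243). Without WT10M replicate 5 it was -0.88 (adjusted p = 0.00699), in a fit where 1453 of all 18011 genes passed. Outside the set apart it was -0.73, and within the set apart, 1 library against 2, it was 0.16. The group means were 13.2 ± 4.39 FPKM in WT10M, 11.9 ± 1.42 in WT03M, 8.14 ± 1.59 in TG10M and 6.30 ± 1.61 in TG03M (SD, n = 5). The 2 WT groups differed by less than their SDs, while WT03M and TG10M differed by more. The genotype differences at the 2 ages were not shown to differ (interaction 0.31, SE 0.32, adjusted p = 0.981).

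Levels of Neat1 and of mitochondrially encoded RNA parted the libraries in the same way, a pattern chosen after the values were seen. All 10 TG libraries and WT10M replicate 5 had Neat1 at 4.37 to 9.88 FPKM and mt-Co1, a subunit gene of cytochrome c oxidase, at 8514 to 13045 FPKM. The other 9 libraries, all WT, had Neat1 at 10.4 to 17.2 FPKM and mt-Co1 at 5998 to 6915 FPKM. The 10 mitochondrially encoded genes of the list summed to 8051 to 8888 FPKM in WT03M against 11650.5 to 16821 in TG03M, and to 8483 to 16860 in WT10M against 11787 to 15155 in TG10M, and 5 of the 10 rose in TG03M over WT03M. With FPKM rescaled to the sum without these genes, the Neat1 difference stayed below 0 at both ages. The rescaling moved the median over all genes to 0.08 at 3 months and -0.05 at 10 months. Such shifts are small beside the Neat1 differences of -0.93 and -0.63, so their signs could hardly turn. Hsp90aa1, a heat shock protein gene, was listed at 13.9 to 20.5 FPKM in TG03M replicates 2 to 5 and the set apart and at 532 to 687 FPKM elsewhere. All WT03M libraries had the higher Hsp90aa1 level, so genotype and this split can hardly be told apart at 3 months. TG03M replicate 1, the only TG03M library at that level (560 FPKM), had 6.97 FPKM of Neat1 and 8514 FPKM of mt-Co1. The part of these differences between libraries in the Neat1 values was not tested.

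**Figure D4:**
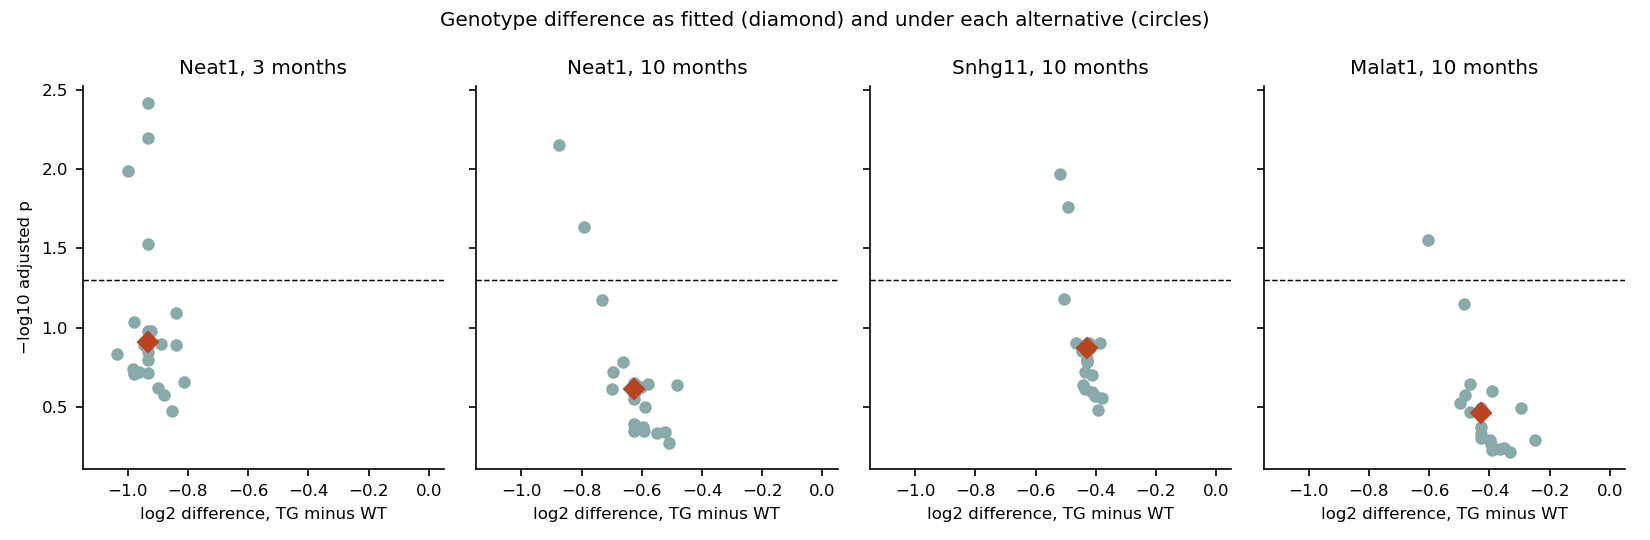
Log2 difference of TG minus WT (x axes) against -log10 of the adjusted p (y axis) for Neat1 at 3 and 10 months and for Snhg11 and Malat1 at 10 months; the diamond is the fit reported and each circle an alternative, and the dashed line marks an adjusted p of 0.05. All points lie below 0 on the x axis, and between 1 and 4 circles per panel lie above the line.

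Miat was at 32.3, 32.5, 39.9, 28.7 and 42.9 FPKM in WT03M and at 28.0, 28.1, 28.9, 24.8 and 38.4 FPKM in TG03M. In WT10M it was at 43.4, 38.1, 39.0, 40.4 and 28.7 FPKM, and in TG10M at 31.9, 37.5, 27.2, 28.5 and 26.0 FPKM. The groups overlapped at both ages, at 10 months only through WT10M replicate 5. The log2 difference was -0.25 at 3 months (SE 0.13, adjusted p = 0.572) and -0.32 at 10 months (SE 0.13, unadjusted p = 0.0247, adjusted p = 0.316). Without WT10M replicate 5 the latter was -0.42 (adjusted p = 0.0498, where 1453 of 18011 genes passed), and within the set apart it was 0.01. The model that carries the repeats printed above made up 24.3 of the mean of 33.3 FPKM.

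Snhg11, a host gene enriched in neurons, was at 103, 112, 133, 84.2 and 109.9 FPKM in WT03M and at 84.9, 93.8, 86.8, 91.4 and 124 FPKM in TG03M. These groups overlapped (log2 difference -0.17, SE 0.12, adjusted p = 0.684). In WT10M it was at 117, 128, 124, 109.7 and 87.2 FPKM, and in TG10M at 86.7, 80.1, 87.4, 85.0 and 78.0 FPKM. TG10M was narrow, 83.5 ± 4.18 FPKM against 113 ± 16.1 in WT10M (SD, n = 5), and the groups overlapped only by WT10M replicate 5 and TG10M replicate 3. The log2 difference was -0.43 (SE 0.12, 95% interval -0.68 to -0.18, unadjusted p = 0.0017, limma adjusted p = 0.135). It was -0.52 without WT10M replicate 5 (adjusted p = 0.0107, where 1453 of 18011 genes passed). Among the 7 libraries outside the set apart it was -0.51, and within the set apart -0.08. Its only transcript in the table has 5864 bases, with an estimated 10619 to 19091 fragments per library.

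Snhg1 was at 13.0 to 20.01 FPKM in WT03M and 12.1 to 17.6 in TG03M. At 10 months the range was 16.02 to 20.9 FPKM in WT10M and 12.8 to 18.7 in TG10M. The group means, 17.2, 14.9, 18.2 and 16.3 FPKM, lay within 1 SD of their neighbours in order. Its genotype differences were -0.20 at 3 months and -0.17 at 10 months (SE 0.13 each, adjusted p = 0.670 and 0.597). Its spliced model had a mean of 14.4 FPKM and a model of 2728 bases that retains introns 2.22 FPKM. The ratio of the latter to the former was 0.087 to 0.222 over all libraries, and in no comparison did it pass an adjusted p of 0.05 (exact permutation test, adjusted p = 0.524 to 0.865 over 4 comparisons).

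Gas5, a host gene named for its build-up in growth-arrested cells, was at 26.3, 278.95, 160, 20.6 and 158 FPKM in WT03M and at 149, 13.0, 17.5, 135 and 117 FPKM in TG03M. At 10 months it was at 325, 143, 169, 291 and 212.8 FPKM in WT10M and at 99.2, 260, 132, 136 and 184 FPKM in TG10M. WT03M replicates 1 and 4 and TG03M replicates 2 and 3 lay at 13.0 to 26.3 FPKM, and the other 16 libraries at 99.2 to 325 FPKM. The 4 were parted from the 16 by their Gas5 values, so Gas5 itself was bound to stand out between them. Among 12619 genes above 1 FPKM in all of those 16, no other had all 4 libraries more than 3-fold below the lowest of the 16.

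The 4 low libraries came from both genotypes. In them the 3 most abundant spliced models together gave 2.44 to 15.8 FPKM, against 86.7 to 306 FPKM in the other 16. The 2 of these with 346 and 557 bases were at no more than 1.12 FPKM in any of the 4. The most abundant of the models that retain an intron was at 7.51, 9.45, 9.01 and 9.96 FPKM in the 4 and at 4.06 to 9.79 FPKM in the 16, so these ranges overlapped. The 6 models other than the 3 spliced ones summed to 10.5 to 11.6 FPKM in the 4 libraries and to 11.1 to 20.3 FPKM in the 16. A second intron-retaining model was at 0.123 to 0.476 FPKM in the 4 and at 1.12 to 4.77 FPKM in the 16, with no overlap. Lower values in the 4 libraries were thus not confined to the spliced models; this model was singled out after its values were seen. In a program that shares fragments out among overlapping models, a model listed at 0 can be a failed estimate, and whether that holds here was not tested.

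**Figure D5:**
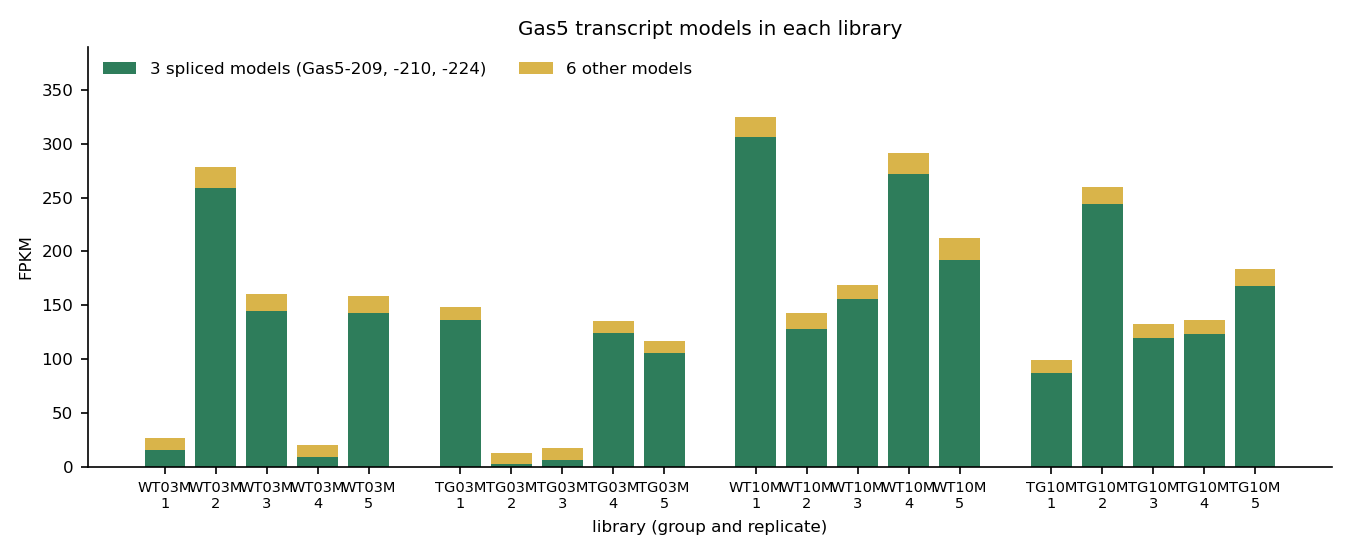
Stacked bars of Gas5 FPKM (y axis) in each of the 20 libraries (x axis), split into the 3 spliced models and the 6 other models. In WT03M replicates 1 and 4 and TG03M replicates 2 and 3 the summed bar is at 13.0 to 26.3 FPKM, with the 6 other models at 10.5 to 11.6 FPKM.

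The log2 differences of Gas5 with age were 1.40 in WT and 1.46 in TG (SE 0.73 each, unadjusted p = 0.0699 and 0.0586, limma adjusted p = 0.756 and 0.373). Without the 4 low libraries, which are all 3 months old, the differences were 0.18 and 0.21. These libraries were picked by their low Gas5 values, so leaving them out was bound to shrink both differences. By genotype the difference was -0.57 at 3 months and -0.50 at 10 months (adjusted p = 0.856 and 0.800). That at 3 months ran from -1.07 without WT03M replicate 4 to -0.04 without TG03M replicate 2, both among the 4 low libraries. Zbtb37 overlaps Gas5 on the opposite strand, as Gm26953 does Miat and Gm26700 does Rmst. Strand use in the counting is not given in the sources used here, so reads of such a pair may not be told apart where they overlap.

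Pvt1 (chr15:62037986-62378096, plus strand) was at 19.03 to 28.2 FPKM over all libraries, with group means (SD, n = 5) of 22.7 ± 1.79 FPKM for WT03M and 23.6 ± 3.80 for TG03M, then 24.9 ± 2.59 for WT10M and 24.1 ± 2.83 for TG10M. All pairs of neighbours differed by less than their SDs. Its log2 differences by genotype were 0.04 and -0.05 at 3 and 10 months (95% intervals -0.18 to 0.26 and -0.27 to 0.17). Rmst, whose ID in the table is not in M21 but whose symbol M21 places at chr10:92071037-92165170 on the minus strand, was at 9.10 to 18.3 FPKM. Its group means ran from 12.6 to 14.8 FPKM and its genotype differences were 0.01 and -0.13 (95% intervals -0.32 to 0.33 and -0.46 to 0.20). The 7 Pvt1 and 6 Rmst transcripts had no adjusted p under 0.05.

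Sox2ot (chr3:34104270-34682619, plus strand), within which Sox2 lies, was at 3.998, 12.2, 13.6, 7.10 and 7.35 FPKM in WT03M. In WT10M it was at 13.8, 9.89, 8.79, 13.2 and 14.4 FPKM, and the 2 groups overlapped. The log2 difference with age was 0.53 in WT (SE 0.26, unadjusted p = 0.051, adjusted p = 0.727) and 0.31 in TG (adjusted p = 0.591). Without WT03M replicate 1, the lowest library, the difference in WT was 0.28. Sox2 differed with age in TG by 0.17 (SE 0.07, adjusted p = 0.298). By genotype Sox2ot differed by 0.06 at 3 months and -0.17 at 10 months, with SEs of 0.26.

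Pantr1 (chr1:42590782-42694842, minus strand) was at 73.2, 80.3, 99.1, 102 and 86.0 FPKM in TG03M. In TG10M it was at 74.6, 74.0, 71.2, 78.9 and 76.6 FPKM, a narrower range that overlapped with TG03M only through TG03M replicate 1. The log2 difference with age in TG was -0.22 (SE 0.09, unadjusted p = 0.022, limma adjusted p = 0.274), and in WT it was -0.09 (adjusted p = 0.902). With FPKM rescaled to the sum without mitochondrially encoded genes, the TG difference was -0.34 (adjusted p = 0.0412). That rescaling called 1952 of all 18011 genes for age in TG, against 107 in the fit reported. It moved the median over all genes to -0.11, so the Pantr1 call came with a general shift. Of its 5 transcripts, the one with the smallest p for age in TG had a log2 difference of -0.45 (adjusted p = 0.265). Genotype differences of Pantr1 were 0.10 and -0.03 at 3 and 10 months (adjusted p = 0.764 and 0.894).

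Other lncRNAs and the protein partners of these RNAs were read from lists. Of 15 further snoRNA host lncRNAs, 0 rose and 0 fell at either age by limma. At 10 months 11 of the 15 were below 0, with a median of -0.24, and at 3 months 10 were, with a median of -0.18. Those with the smallest p at 10 months were Snhg12 (-0.26, adjusted p = 0.213), Snhg5 (-0.30, 0.252) and Snhg17 (-0.33, 0.257), and at 3 months Snhg20 (-0.50, 0.153), Snhg17 (-0.45, 0.183) and Zfas1 (-0.30, 0.326). Of 11 other nuclear or imprinted lncRNAs, all were below 0 at 10 months, with a median of -0.24, and 6 at 3 months, with a median of 0.00, and 0 passed. Firre, a nuclear RNA that organises chromatin, had -0.59 at 10 months (adjusted p = 0.159), and Meg3, an imprinted RNA of neurons, -0.34 (adjusted p = 0.255). The median over all genes was -0.01 at both ages.

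Among 18 paraspeckle proteins, the partners of Neat1, 0 passed in either direction at either age by limma, and the medians were -0.02 at 3 months and -0.08 at 10 months. Tardbp, the gene of TDP-43, had -0.21 and -0.23 (adjusted p = 0.576 and 0.420). Among 22 nuclear speckle and splicing factors 0 passed, and 14 and 19 were below 0 at 3 and 10 months, with medians of -0.06 and -0.14. Pnisr, which followed Malat1 over the libraries, had -0.25 and -0.42 (adjusted p = 0.535 and 0.165), and Son, a core protein of speckles, had -0.20 at 10 months (adjusted p = 0.204). The 12 snoRNA-protein partners and the 14 nonsense-mediated decay factors also had 0 calls, with medians of 0.01 and -0.06 at 10 months. The 12 protein genes that neighbour or overlap the lncRNA genes had 0 calls as well, with a median of 0.08 at 3 months and 0.03 at 10 months.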

How the data were processed

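Total RNA from frozen cortex, with a RIN above 7, was sequenced, and the authors deposited FPKM per transcript, per the labels. Per the submitters' processing notes, CASAVA, TopHat2, Cuffdiff, DESeq2 and the build GRCm38 (mm10) were used; no versions or roles are stated there. FPKM of the transcripts were summed per gene ID. Genes with a mean of at least 0.1 FPKM (18011) were tested on log2(FPKM + 0.1) with limma 3.58.1 (R 4.3.3; lmFit, contrasts, eBayes with a trend), two-sided, on 16 residual degrees of freedom. Benjamini-Hochberg adjustment ran over all genes. The 0.1 added makes log2 differences of low genes too small. Transcripts were tested likewise (35709 tested). The fit was tested on simulated data. Depth was estimated from the steps of low FPKM values in 1892 single-transcript genes over 4000 bases; precision was otherwise taken from the spread between libraries. The members and lists were chosen with earlier results of these data known. All 10 genes are reported, with their transcripts. Up to 3 genes of each other list are named by the smallest p, and the 5 genes most correlated with Malat1 by r. Tyrobp, Gfap, Hsp90aa1 and mt-Co1 were named after their values were seen. Sequences came from GENCODE M21 transcripts and RefSeq. Alternatives were other pseudocounts, filters and scalings, array weights, a robust prior, a replicate block, the set apart left out or as a term, the compared groups alone, exact permutation and each library left out.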

Additional observations from a re-analysis of the deposited data

Results flagged for a closer look

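Of 52 groups of 5 values checked, 4 had a value far from the other 4, where chance gives about 1 in 20. Malat1 in WT10M replicate 5 was at 2640 FPKM, against 4681 to 5305 in the other 4 libraries of its group. Snhg11 in TG03M replicate 5 was at 124 FPKM, against 84.9 to 93.8. The ratio of the intron-retaining to the spliced Snhg1 model was 0.0871 in TG10M replicate 5, the lowest of the group. The most abundant intron-retaining Gas5 model was at 8.79 FPKM in TG10M replicate 5, the highest of its group, while the Gas5 sum there was 184 FPKM. In 3 of these 4 the library belongs to the set apart, and the part of that in the values was not tested.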

How the results depend on the processing

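Of 1330 values of the 10 genes' log2 differences under 36 alternative settings, 1260 kept their direction and side of the threshold and 56 changed sign. Another 11 newly passed an adjusted p of 0.05, and 3 passed an unadjusted p of 0.05 in the exact permutation test. No call could be lost, as the fit reported had none among the 10 genes. The genes called at 3 months numbered 1 (Neat1) with array weights, with the compared groups only, with the set apart as a term, without the set apart and by the exact permutation test at an unadjusted p. Without the set apart 1 transcript, that of Neat1, was also called. At 10 months 2 were called with array weights (Neat1, Snhg11) and 2 by the exact test (Miat, Snhg11), and leaving out 1 library gave 0 to 4, the 4 without WT10M replicate 5. For age in TG 1 (Pantr1) was called after rescaling without mitochondrially encoded genes, where 1952 of all 18011 genes were, against 107 in the fit reported. Over all genes the calls at 10 months were 83 in the fit reported, 13 with the compared groups only, 23 after that rescaling, 775 with array weights, 163 with the set apart as a term, 272 without it and 1453 without WT10M replicate 5. At 3 months they were 38, 152, 75, 119, 451 and 442 in the same order of settings but the last, which does not touch that age.

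Signs turned mostly where differences were small, and the cause was not tested. Rescaling gave -0.064 for the Gas5 interaction, -0.088 for Miat, -0.080 for Pvt1 and -0.024 for Rmst for age in TG, and -0.100 for the Snhg1 interaction; it moved the median interaction of all genes to -0.13. The set apart as a term gave 0.048 for Malat1, -0.064 for Pvt1 and -0.062 for Rmst for age in TG and -0.025 for the Snhg1 interaction. Without the set apart Pantr1 at 10 months was 0.008, Pvt1 and Rmst for age in TG were -0.071 and -0.057, and the Snhg1 interaction was -0.033. Quantile normalization gave -0.039 for Malat1 with age in WT and 0.193 at 3 months, and array weights -0.024 for Pvt1 at 3 months.

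With 1 library left out at a time, the lowest and highest values spanned 0 as follows. The interaction of Gas5 ran from -0.457 to 0.566, of Miat from -0.173 to 0.021, of Snhg1 from -0.042 to 0.125 and of Sox2ot from -0.414 to 0.022. Age in WT ran from -0.047 to 0.218 for Malat1, -0.040 to 0.326 for Neat1, -0.004 to 0.150 for Snhg1 and -0.024 to 0.155 for Snhg11. Age in TG ran from -0.049 to 0.129 for Miat, -0.033 to 0.105 for Pvt1 and -0.017 to 0.171 for Rmst. Genotype at 10 months ran from -0.095 to 0.015 for Pantr1 and -0.098 to 0.005 for Pvt1, and at 3 months from -0.024 to 0.115 for Pvt1, -0.064 to 0.119 for Rmst and -0.189 to 0.247 for Sox2ot. The Gas5 difference at 3 months kept its sign but ran from -1.067 (without WT03M replicate 4) to -0.044 (without TG03M replicate 2). The log2 difference of the Malat1 5′ over 3′ ratio ran from -0.438 to -0.177 at 10 months. Its exact p went under 0.05 there only without WT10M replicate 5. At 3 months the difference ran from -0.082 to -0.045, and p did so without WT03M replicate 3 (-0.081) or TG03M replicate 5 (-0.082). This ratio was chosen after its values were seen, so its p are a description.

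Libraries with the same replicate number had correlations of their deviations from -0.283 to 0.590. The highest was that of the replicates 5 of WT10M and TG10M, both of the set apart, which correlated best with their own number, as the replicates 2 of WT03M and WT10M did at 0.051. Not every pair was above 0.1, so the numbers were not taken to pair libraries. With a replicate block 0 of the 10 genes and 0 of their transcripts were called in each comparison, as without it, and the calls over all genes at 10 months went from 83 to 57. The Neat1 transcript rests on an estimated 108 to 462 fragments per library.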
